A study of Homo sapiens with 6 samples.

Results

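The inflammatory caspases and inflammasome genes are described here in MOLT-4, an established human line of T-cell acute lymphoblastic leukemia (T-ALL). They are 7 of the 60640 genes in the expression tables: CASP1, CASP4, CASP5, CARD16, NLRP1, PYCARD and GSDMD. Each was found by its exact gene symbol, and all 7 had a row in every library. The set was put together with the difference between the groups already known. The differences of its members are therefore given as a description without a test.

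An inflammasome is a protein platform that a cell builds when it senses infection or damage. A sensor such as NLRP1 recruits the adaptor ASC, the product of PYCARD, through matching death-fold domains, and ASC brings in the protease caspase-1. Caspase-1 matures interleukin-1 beta and interleukin-18 and cuts gasdermin D, the product of GSDMD, whose freed fragment forms pores in the plasma membrane and causes pyroptosis, a lytic cell death. Caspase-4 and caspase-5 bind bacterial lipopolysaccharide in the cytosol and cut gasdermin D without a sensor or adaptor (the non-canonical route), and CARD16 is a decoy that holds the recruitment domain of caspase-1 without its protease. The route is best known from macrophages and epithelial cells.

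RNA was compared between 2 groups of 3 libraries of polyadenylated RNA. Wild type is the control of the CRISPR knockout, with no other treatment labelled. IK-KO is MOLT-4 with IKZF1, the gene of the DNA-binding protein IKAROS, targeted by CRISPR-Cas. The edited cells and their control came from a supplier. The study shows a pair of knockout clones on protein blots and names PCR and western blot as its checks of the knockout, neither of which was analysed here. The labels do not say which clone was sequenced, so effects of a clone and of the genotype cannot be told apart. Nothing says that the libraries came from separate cultures, so p-values measure the spread between these libraries only, which may be technical. Levels are FPKM (fragments per kilobase of transcript, scaled to the mapped fragments of the library), which are set per length and can be compared between genes. These are bulk samples, in which fewer cells with a transcript and less transcript per cell cannot be told apart.

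IKZF1 (ENSG00000185811.19) measured 134, 124 and 105 FPKM in wild type replicates 1 to 3 and 207, 260 and 207 FPKM in IK-KO replicates 1 to 3. The RNA of the targeted gene was higher in every library labelled IK-KO, by 0.89 ± 0.12 (SE) in log2(FPKM + 1), with a limma adjusted p of 0.00295. The gene-level RNA neither shows the knockout nor bears on the loss of the protein, and IK-KO below means the libraries labelled so. The fragments behind 1 FPKM in 1 kilobase of transcript, estimated from the confidence bounds in the tables, lay between 17.3 and 20.9 over the 6 libraries. The mitochondrial share of summed FPKM lay between 12.96% and 14.4%. All 12 T-lineage markers on the list passed the filter on low values, and their summed level was 1545 to 1619 FPKM in wild type and 1468 to 1644 FPKM in IK-KO. That sum is mostly CD3D, CD3E, CD1E and LCK, and it hides single markers: 4 were higher and 6 lower in IK-KO by limma, or 83.3% of the list against 19.9% of all genes fitted, with a median log2 difference of -0.57. CD2 fell from a mean of 61.5 to 5.14 FPKM, CD1E from 231 to 79.4 FPKM and CD5 from 25.3 to 11.7 FPKM. CD7 fell from 15.8 to 4.17 FPKM, CD8A from 9.02 to 2.94 FPKM and CD4 from 2.77 to 0.384 FPKM. In the other direction, CD3D rose from 490 to 667 FPKM and CD3G from 66.5 to 105 FPKM. CD1A rose from 51.0 to 93.4 FPKM and PTCRA from 1.44 to 2.90 FPKM. CD3E and LCK were not called, so the list did not move in 1 direction. All 12 myeloid markers were below 1 FPKM in every library, with 5 of them, namely ITGAX, FCGR3A, S100A8, S100A9 and CD33, listed at 0 throughout. The 12 summed to 0.0842 to 0.617 FPKM in wild type and 0.335 to 0.605 FPKM in IK-KO. The summed 5 epithelial markers lay at 0.701 to 2.01 and 1.11 to 1.78 FPKM, and the 6 B-lineage markers at 1.49 to 3.62 and 1.11 to 1.53 FPKM.

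The caspase members share a locus. CASP4, CASP5, CASP1 and CARD16 lie side by side on the minus strand of chromosome 11 (GRCh38 chr11:104942866-105101431), and NLRP1, PYCARD and GSDMD lie on chromosomes 17, 16 and 8. CARD16 is so like the start of CASP1 that the longest run of identical coding bases spans 144 bases, at coding positions 110 to 253 of both genes and within exon 2 of both. In CASP1 (ENST00000533400.6) the run lies at chr11:105034229-105034372, and in CARD16 (ENST00000673097.2) at chr11:105044413-105044556. It is printed because fragments from it fit both genes equally, so the levels of CASP1 and CARD16 rest partly on how the quantification divided them.
CASP1 and CARD16: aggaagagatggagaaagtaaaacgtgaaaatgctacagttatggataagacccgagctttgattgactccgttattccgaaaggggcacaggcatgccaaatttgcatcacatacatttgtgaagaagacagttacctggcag
Over the whole alignment the coding sequences agreed at 97.3% of 293 columns. Of all 50-base windows of the CASP1 transcript 6.21% also occurred in CARD16, and 24.4% of those of CARD16 also occurred in CASP1. CASP4 and CASP5 were 84.8% identical over 1128 columns, and 0.802% and 0.716% of their windows were shared.

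RefSeq windows of GRCh38.p14 were at hand for 3 of the 7 members (CASP4, CASP5 and PYCARD). The sequence is shown for CASP5, the gene of the locus that was not detected, as the 250 bases before its RefSeq start on the strand of the gene, with capitals for motif matches. Searched on both strands were the IKAROS core TGGGAA, a STAT element TTCNNNGAA and the interferon response element. The CASP5 window is chr11:105023169-105023418 on the minus strand and begins where its row in the tables ends. The windows of CASP4 (chr11:104968575-104968824) and PYCARD (chr16:31202761-31203010) lie inside the rows of these genes, which hold transcripts with an earlier start, so they are not upstream of the whole gene as measured.
CASP5: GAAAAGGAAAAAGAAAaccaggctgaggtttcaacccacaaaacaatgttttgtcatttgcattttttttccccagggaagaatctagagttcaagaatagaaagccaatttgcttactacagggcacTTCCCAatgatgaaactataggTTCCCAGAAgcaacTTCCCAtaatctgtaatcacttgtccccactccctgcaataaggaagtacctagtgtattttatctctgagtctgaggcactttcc
The windows of CASP4 and PYCARD held none of the 3 motifs. The CASP5 window held TTCCCA, the core read on the other strand, at positions -122 to -117, -100 to -95 and -86 to -81 before the RefSeq start. It also held 2 overlapping interferon response elements at -250 to -241 and -244 to -235, and a STAT element at -100 to -92 that overlaps a TTCCCA. Among all 35116 windows of this length 20.8% held the IKAROS core, 3.02% the interferon response element and 6.57% the STAT element. The 250-base windows of CASP4 and CASP5 were identical at 64.7% of 269 aligned columns. The matches describe letters only; binding was not measured in these libraries.

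Expressed in wild type were the executor and 3 of the 4 genes of the caspase locus. In wild type the members stood in the order GSDMD, CASP4, CARD16, CASP1, NLRP1, PYCARD and CASP5 by mean FPKM, and the first 5 did not overlap with their neighbours in that order in any library. PYCARD and CASP5 were at or near 0 and could not be ordered. In IK-KO the order was GSDMD, CASP4, CARD16, NLRP1, CASP1, PYCARD and CASP5, where CARD16 and NLRP1 overlapped between libraries, as did CASP1, PYCARD and CASP5 in part.

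**Figure D1:**
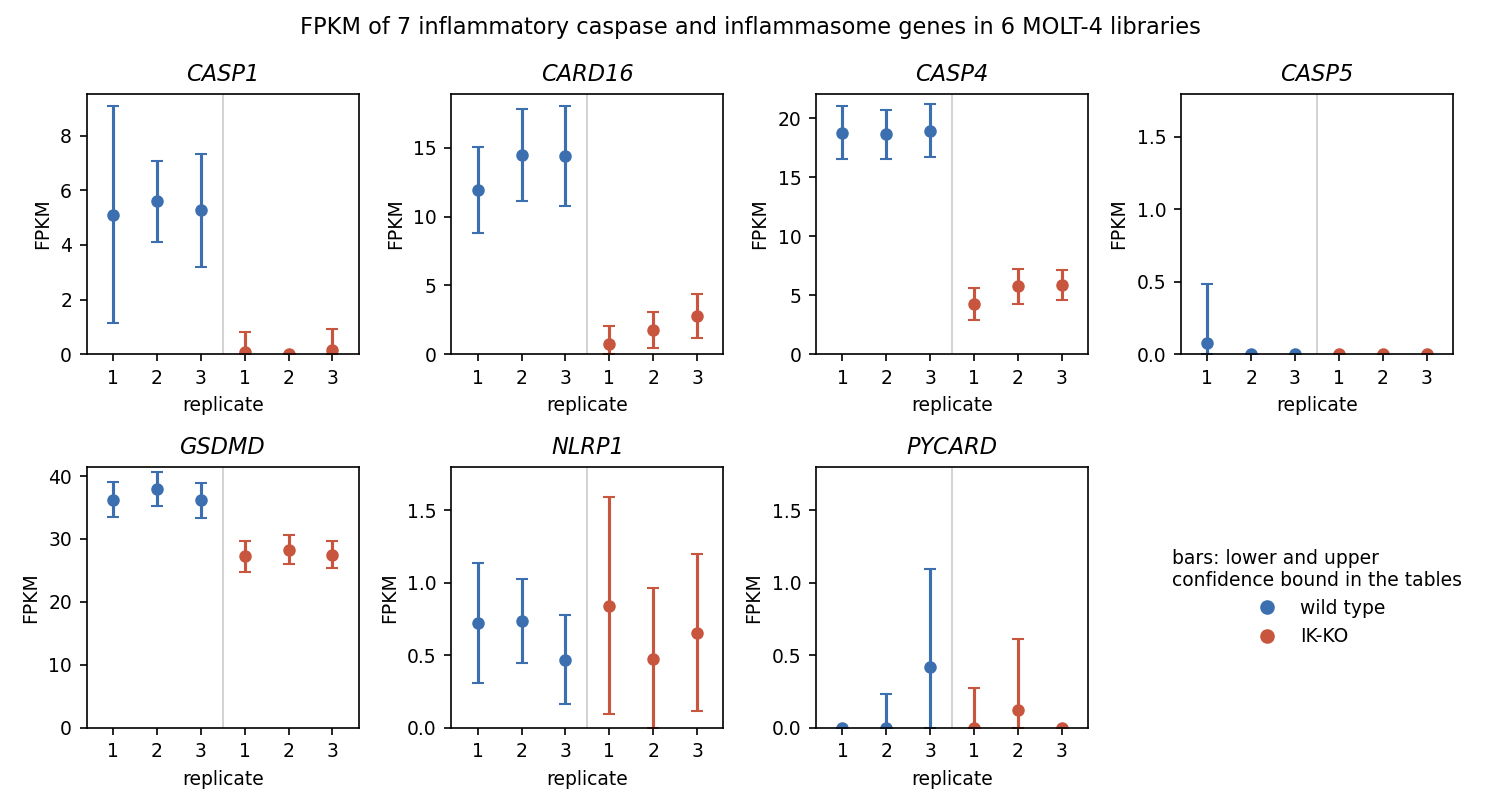
FPKM of the 7 members (linear axes from 0, a scale for each gene) in wild type replicates 1 to 3 (blue) and IK-KO replicates 1 to 3 (red), with the lower and upper confidence bound in the tables as bars. CASP1, CARD16, CASP4 and GSDMD separate by group with no overlap of bars, while NLRP1, PYCARD and CASP5 stay below 1 FPKM in every library.

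The sensor and the adaptor were scarce in both groups. NLRP1 (ENSG00000091592.16, chr17:5499427-5619424) measured 0.724, 0.737 and 0.470 FPKM in wild type and 0.841, 0.476 and 0.657 FPKM in IK-KO. The groups overlapped, with means of 0.644 ± 0.151 and 0.658 ± 0.183 FPKM (SD, n = 3 each), and the gene fell under the filter of a mean of 1 FPKM. PYCARD (ENSG00000103490.14, chr16:31201486-31203450) measured 0, 0.000201 and 0.422 FPKM in wild type and 0.000227, 0.122 and 0 FPKM in IK-KO. Every lower bound of PYCARD was 0, and its highest upper bound was 1.10 FPKM, in wild type replicate 3. A level of ASC transcript distinguishable from 0 was therefore not detected at this depth in any library, and no difference could be read.

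Caspase-1 transcript was near 5 FPKM in wild type and near 0 in IK-KO. CASP1 (ENSG00000137752.24, chr11:105025443-105035250) measured 5.11, 5.59 and 5.26 FPKM in wild type and 0.101, 0 and 0.171 FPKM in IK-KO. The groups lay far apart, and the IK-KO mean was 1.70% of the wild type mean. All 3 IK-KO lower bounds were 0 and the highest upper bound was 0.908 FPKM, so in none of them could the level be told from 0. On the length of its canonical transcript the wild type values correspond to 196, 226 and 185 fragments and the IK-KO values to 3.48, 0 and 7.12 fragments. These figures use the depth estimated for each library, not the bounds of CASP1, and leave out the uncertainty in assigning fragments. In wild type replicate 1 the upper bound lay 77.9% above the value. The wild type bounds differed in width, from 4.12 to 7.06 FPKM in replicate 2 to 1.13 to 9.08 FPKM in replicate 1. The difference was -2.54 ± 0.14 (SE) in log2(FPKM + 1), a scale that understates the change of a gene this low. With a pseudocount of 0.1 in place of 1 it was -4.94. CASP1 passed the filter through its wild type level alone.

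CARD16, the decoy, followed the same order of groups at a higher level. CARD16 (ENSG00000204397.8, chr11:105041326-105101431) measured 11.9, 14.5 and 14.4 FPKM in wild type and 0.759, 1.75 and 2.77 FPKM in IK-KO. No IK-KO library came near the wild type libraries, and the IK-KO mean was 12.9% of the wild type mean. The IK-KO libraries spread more among themselves in proportion than the wild type libraries did, with a mean of 1.76 ± 1.005 against 13.6 ± 1.45 FPKM (SD, n = 3 each). The bound of IK-KO replicate 1 reached 0 and those of replicates 2 and 3 did not. The difference was -2.47 ± 0.26 (SE) in log2(FPKM + 1). The row of CARD16 in the tables spans the neighbouring CARD17, and its transcript shares the printed run with CASP1, so the split of fragments between CASP1 and CARD16 is uncertain.

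Of the lipopolysaccharide-binding caspases CASP4 was expressed and CASP5 was not detected. CASP4 (ENSG00000196954.14, chr11:104942866-104969366) measured 18.8, 18.6 and 19.0 FPKM in wild type and 4.25, 5.76 and 5.86 FPKM in IK-KO. The wild type libraries had an SD of 0.157 FPKM (n = 3), and all IK-KO libraries lay far below them, with a mean of 28.1% of the wild type mean. In contrast to CASP1, all IK-KO lower bounds of CASP4 were above 0, the lowest at 2.88 FPKM, so the transcript stayed detectable. The difference was -1.67 ± 0.12 (SE) in log2(FPKM + 1). CASP5 (ENSG00000137757.11, chr11:104994235-105023168), whose row lies between those of CASP4 and CASP1, measured 0.0772 FPKM in wild type replicate 1 with a lower bound of 0, and was listed at 0 in the other 5 libraries.

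Gasdermin D, the pore-forming executor, had the highest level of the members and the smallest difference of the 4 that passed the filter. GSDMD (ENSG00000104518.11, chr8:143553207-143563062) measured 36.2, 38.0 and 36.2 FPKM in wild type and 27.2, 28.3 and 27.5 FPKM in IK-KO. The groups did not overlap, and the lowest wild type bound of 33.4 FPKM lay above the highest IK-KO bound of 30.6 FPKM. The IK-KO mean was 75.3% of the wild type mean, and the difference was -0.40 ± 0.05 (SE) in log2(FPKM + 1).

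Of the 7 members 4 passed the filter on low values. Of these 4 members 3 were lower in IK-KO by at least 2-fold on the log2(FPKM + 1) scale, against 2.76% of all 12652 genes fitted, and 4 had all wild type bounds above all IK-KO bounds, against 4.32%. The members were chosen on this contrast, so nothing is read from these counts. The 4 genes of the locus summed to 35.9, 38.7 and 38.6 FPKM in wild type and 5.11, 7.504 and 8.80 FPKM in IK-KO. That was 49.3%, 50.02% and 51.0% of the members' summed FPKM in wild type and 15.4%, 20.6% and 23.8% in IK-KO, the remainder being nearly all GSDMD.

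The surroundings of the locus were compared, since they played no part in the choice of members. The locus stands alone: the nearest fitted genes lie 1463 kb below it (DYNC2H1) and 894 kb above it (MSANTD4). Among 24 further genes listed in between, 3 were above 0 in any library and none reached 1 FPKM, the highest value being 0.634 FPKM. CASP12, CARD17 and CARD18, the other members of this gene cluster, were listed at 0 in all 6 libraries. The 10 nearest fitted genes on each side had a median difference of -0.02 in log2(FPKM + 1), with a range from -0.64 to 0.64. They reach as far as 9110 kb below the locus (CEP57) and 3371 kb above it (POGLUT3). CASP4, CASP1 and CARD16 differed more, but they were chosen on this contrast, so nothing is read from that. The median of the neighbours is near 0 and its sign is not fixed. It was -0.0468 without IK-KO replicate 1, 0.0127 without wild type replicate 2 and -0.0268 without wild type replicate 3. It was -0.00442 without IK-KO replicate 2 and -0.0741 with a filter at a mean of 5 FPKM. Of these 20 neighbours 4 were called by limma, a share near the 19.9% of all genes fitted. All 4 were lower in IK-KO, against 9.75% called lower over all genes fitted, and nothing is read from so small a count. TMEM123, a gene of a membrane mucin, fell from a mean of 92.1 to 72.1 FPKM (log2 difference -0.35, adjusted p = 0.00579). ACAT1, a mitochondrial acetyl-CoA acetyltransferase, fell from 38.1 to 25.6 FPKM (-0.56, adjusted p = 0.0107). POGLUT3, a protein O-glucosyltransferase, fell from 19.5 to 12.2 FPKM (-0.64, adjusted p = 0.00519). BIRC3, an inhibitor of apoptosis that ligates ubiquitin, fell from 4.90 to 3.23 FPKM (-0.48, adjusted p = 0.0328). The call of BIRC3 was lost when any of 5 libraries was left out, at adjusted p = 0.0961, 0.0522 and 0.0887 without wild type replicate 1, 2 and 3 and 0.0970 and 0.0856 without IK-KO replicate 2 and 3. Among the 20 fitted neighbours of GSDMD the median was 0.02, and 1 was called higher and 1 lower. The 20 around NLRP1 and the 20 around PYCARD each had 2 called, with medians of 0.11 and 0.10. The farthest of those around PYCARD lay 15423 kb away.

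**Figure D2:**
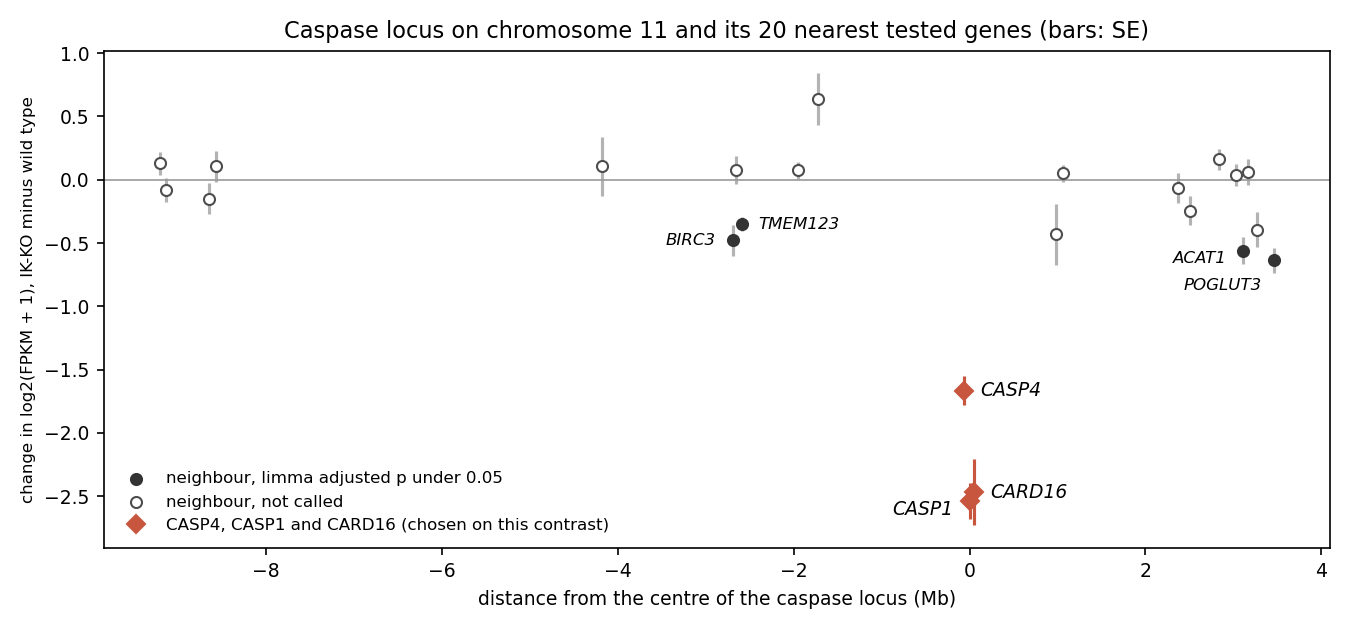
Difference in log2(FPKM + 1), IK-KO minus wild type, against the distance in Mb from the centre of the caspase locus, for CASP4, CASP1 and CARD16 (red) and the 20 nearest fitted genes (filled when called by limma), with SE bars. The 3 members, chosen on this contrast, lie between -2.54 and -1.67, and all 20 neighbours lie between -0.64 and 0.64.

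Other genes of the pathway were taken from 7 lists that hold no member: 128 genes, of which 70 were fitted. Of the 70, 10 were called higher and 7 lower by limma, or 24.3%, against 10.1% called higher and 9.75% called lower over all genes fitted. The median difference over the 70 was 0.03 in log2(FPKM + 1), against 0.02 over all genes fitted. The genes around the members thus did not move in 1 direction. The share called differed by list, up to 41.7% of the licensing and restraint genes and 46.7% of the transcription factors. All 7 lists were chosen with earlier results of these data known, so nothing is read from these shares.

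The sensors outside the member set were mostly too low to be fitted. Of 18 sensors and adaptors 4 were fitted and 0 called by limma, and 0 had an unadjusted p under 0.05. NAIP, the receptor of bacterial flagellin and needle proteins, had means of 7.93 FPKM in wild type and 8.92 FPKM in IK-KO. IFI16, a nuclear DNA sensor and the most abundant of the 4, had means of 66.1 and 70.7 FPKM. CARD8, a relative of NLRP1 that activates caspase-1 without ASC, had means of 18.4 and 18.7 FPKM, so it stood far above NLRP1 in both groups. NOD1, a receptor of bacterial cell wall fragments, had means of 5.86 and 4.42 FPKM. Their limma adjusted p lay between 0.204 and 0.992. The other 14 lay under the filter, with 8 listed at 0 in every library. Those at 0 included AIM2, the cytosolic DNA sensor, while NLRP3, the sensor of membrane damage, reached at most 0.0805 FPKM.

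Among 21 proteins that license or restrain inflammasomes, 12 were fitted, of which 4 were called higher and 1 lower. That was 41.7% of the 12, against 19.9% of all genes fitted. SERPINB1, a serpin that restrains neutrophil proteases and inflammatory caspases, measured 0.432, 0.586 and 0.495 FPKM in wild type and 6.23, 6.01 and 6.15 FPKM in IK-KO. Its IK-KO level thus lay above that of CASP1 in wild type, with a difference of 2.25 ± 0.12 (SE) and an adjusted p of 8.22e-05 by limma. SERPINB1 passed the filter on low values through its IK-KO level alone, so the tally of this list depends on the filter. NEK7, the kinase that licenses NLRP3, rose from 17.7 to 31.0 FPKM (0.77, limma adjusted p = 0.00156). The N-myristoyltransferases moved in opposite directions, NMT2 from 14.8 to 22.8 FPKM (0.60, limma adjusted p = 0.00568) and NMT1 from 50.8 to 37.1 FPKM (-0.44, limma adjusted p = 0.0136). TXNIP, a thioredoxin-binding protein, rose from 26.6 to 31.9 FPKM (0.25, limma adjusted p = 0.0171), a call lost at adjusted p = 0.0550 without wild type replicate 1, 0.0594 without IK-KO replicate 1 and 0.0600 without IK-KO replicate 2. DPP9, which holds NLRP1 and CARD8 in check, had means of 39.1 and 32.9 FPKM and was not called (limma adjusted p = 0.0682). SERPINB9, an inhibitor of granzyme B named after its values were seen, lay under the filter at 0.814, 0.785 and 0.595 FPKM in wild type and 0.156, 0.0457 and 0.0753 FPKM in IK-KO. IRAK4 of the next list and PYDC5 of this list were not analysed here.

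The cytokine substrates of caspase-1 were not expressed. IL1B reached 0.126 FPKM in wild type replicate 3, with a listed value of 0 in the other 5 libraries. IL18 had a listed value of 0 in all wild type libraries and measured 0.157, 0.0312 and 0 FPKM in IK-KO. Of 23 genes of the interleukin-1 family and its receptors 4 were fitted and 1 called, or 25% against 19.9% of all genes fitted. The called gene was IL18BP, the secreted trap of interleukin-18. IL18BP measured 8.12, 8.27 and 6.62 FPKM in wild type and 3.92, 3.21 and 2.89 FPKM in IK-KO, without overlap. Its difference was -0.998 ± 0.133 (SE), with a limma adjusted p of 0.00286. MYD88, the adaptor of interleukin-1 receptors, stayed at means of 39.2 and 40.9 FPKM and was not called (limma adjusted p = 0.511).

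Among 12 other gasdermins and proteins of membrane rupture and repair 10 were fitted, with 1 called higher and 1 lower. That was 20% of the 10, against 19.9% of all genes fitted. NINJ2, a relative of the rupture protein NINJ1, measured 64.6, 72.3 and 66.5 FPKM in wild type and 28.9, 32.6 and 31.9 FPKM in IK-KO, a difference of -1.10 ± 0.07 (SE) with a limma adjusted p of 0.000135. NINJ1 itself had means of 7.98 and 7.19 FPKM and was not called (limma adjusted p = 0.659). GSDME, another pore-forming gasdermin, measured 2.98, 3.53 and 2.57 FPKM in wild type and 4.52, 4.95 and 4.18 FPKM in IK-KO (0.47, limma adjusted p = 0.0454). Its groups did not overlap, but the call was lost when any of 5 libraries was left out, at adjusted p = 0.108 and 0.105 without wild type replicate 1 and 3 and 0.108, 0.134 and 0.0767 without IK-KO replicate 1, 2 and 3. Of 14 genes listed under guanylate-binding proteins and lipopolysaccharide recognition, 6 were fitted and 0 were called by limma, with 1 at an unadjusted p under 0.05. That was TICAM1, an adaptor of TLR4, at means of 4.03 and 2.79 FPKM (limma adjusted p = 0.0544). GBP1, which coats cytosolic bacteria, had means of 18.3 and 15.4 FPKM (limma adjusted p = 0.177), and TLR4 was listed at 0 throughout.

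**Figure D3:**
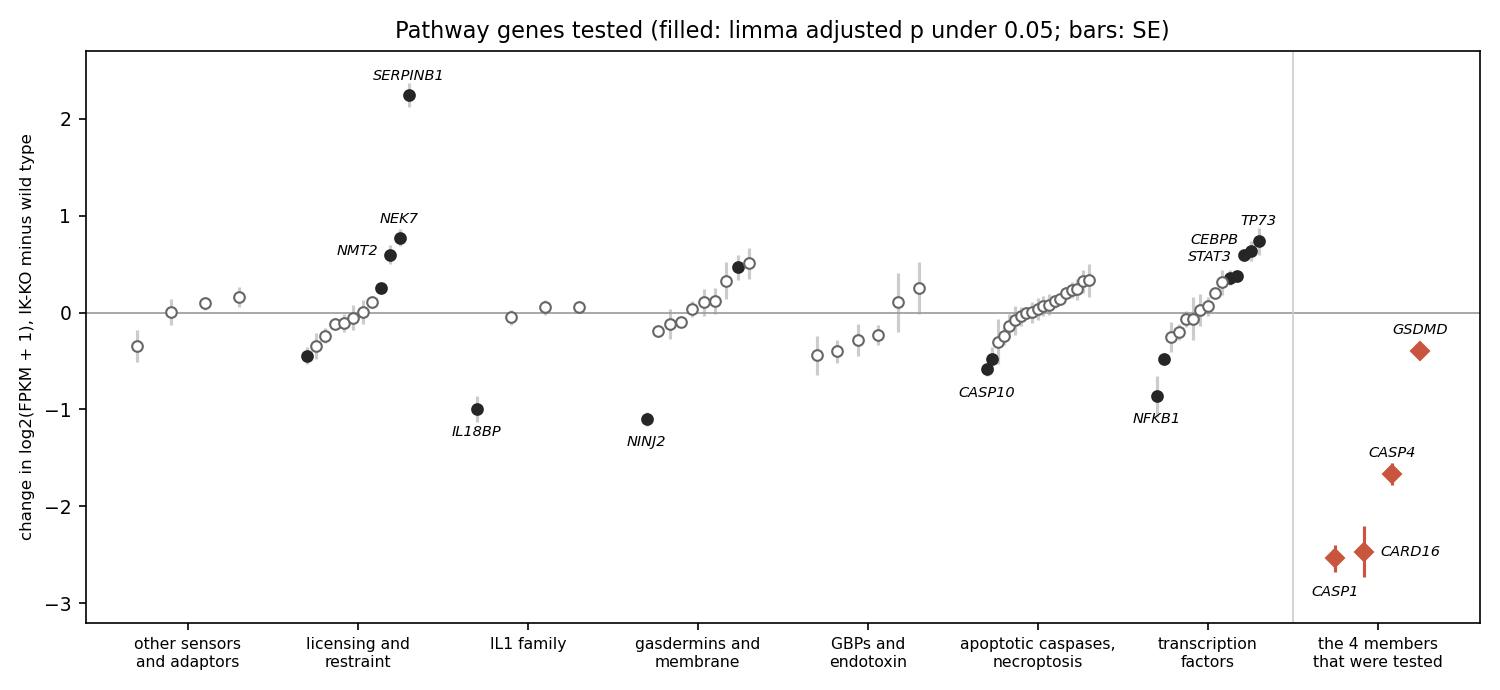
Difference in log2(FPKM + 1), IK-KO minus wild type, of each fitted gene in the 7 pathway lists (circles, filled when called by limma at an adjusted p under 0.05) and of the 4 fitted members (red diamonds), with SE bars. SERPINB1 at 2.25 is the highest point, NINJ2 at -1.10 and IL18BP at -0.998 are the lowest outside the members, and most circles lie near 0.

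In the apoptotic branch of the caspase family CASP10 was lower in IK-KO. Of 23 apoptotic caspases and genes of apoptosis and necroptosis 19 were fitted and 2 were called, or 10.5% against 19.9% of all genes fitted, both lower: CASP10 and BIRC3 (above). A gene that was not called is not thereby unchanged: CASP2 had means of 62.3 and 71.9 FPKM (limma adjusted p = 0.0576) and CASP9 of 2.64 and 3.58 FPKM (limma adjusted p = 0.222). CASP10, an initiator next to CASP8 in the death receptor route, measured 16.3, 15.1 and 15.2 FPKM in wild type and 10.4, 9.93 and 9.66 FPKM in IK-KO. That difference of -0.59 ± 0.07 (SE) had a limma adjusted p of 0.00199. CASP8 had means of 21.7 and 25.98 FPKM and was not called (limma adjusted p = 0.172). In wild type CASP4 stood between CASP8 and CASP10 by mean FPKM, while in IK-KO it lay below both. RIPK3, the kinase of necroptosis, named after its values were seen, lay under the filter at 0.442, 0.353 and 0.473 FPKM in wild type and was listed at 0 in all 3 IK-KO libraries.

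**Figure D4:**
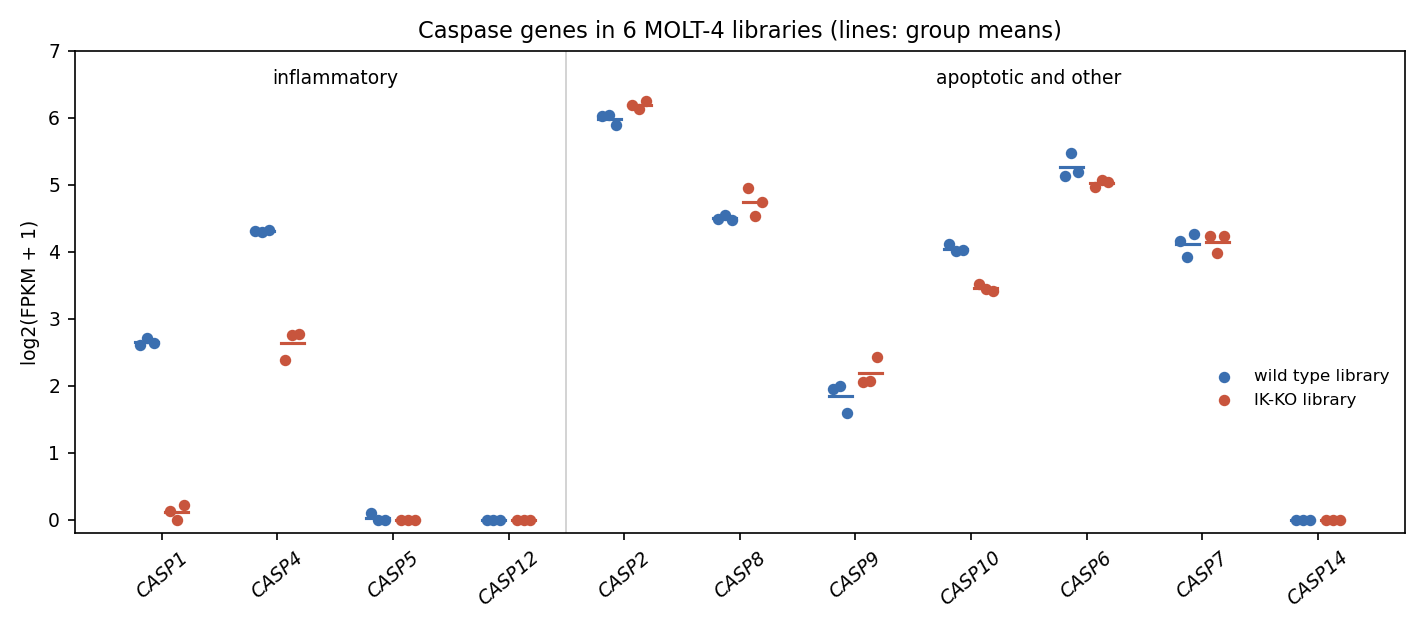
Level in log2(FPKM + 1) of 11 caspase genes in wild type (blue) and IK-KO (red) libraries, with lines at the group means. CASP1 and CASP4 separate widely and CASP10 narrowly, with CASP10 near 15.5 FPKM in wild type and 10.0 FPKM in IK-KO. The groups of CASP2 and CASP9 (higher in IK-KO) and of CASP6 (lower) also do not overlap, but these genes were not called by limma. CASP5, CASP12 and CASP14 lie at or near 0.

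Transcription factors known to act on inflammasome genes were read as levels only. Of 17 listed 15 were fitted, with 5 called higher and 2 lower, or 46.7% against 19.9% of all genes fitted. IRF1 and IRF2, which bind interferon response elements, had means of 39.4 and 45.4 FPKM and of 17.2 and 14.8 FPKM, and neither was called (limma adjusted p = 0.053 and 0.122). SPI1, the myeloid factor PU.1, reached 0.0574 FPKM in IK-KO replicate 1 and had a listed value of 0 elsewhere. Higher in IK-KO were STAT3, which rose from 55.3 to 84.0 FPKM (0.59, limma adjusted p = 0.000365), CEBPB from 11.03 to 17.8 FPKM (0.64, 0.00615) and TP73 from 1.21 to 2.68 FPKM (0.73, 0.0103). ETS1 fell from 120 to 86.0 FPKM (-0.48, limma adjusted p = 0.00302). NFKB1, the gene of the p50 subunit of NF-kB, fell from 2.74 to 1.09 FPKM (-0.86, limma adjusted p = 0.0276). The NFKB1 call was lost at adjusted p = 0.0749, 0.0604 and 0.0845 without wild type replicate 1, 2 and 3 and at 0.0775 and 0.0718 without IK-KO replicate 1 and 2.

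The members were left out of a ranking of genes by likeness to CASP1 and CASP4, so genes of the caspase locus could not appear in it. Among the other fitted genes, the 5 with a profile most like CASP1 over the 6 libraries came from other chromosomes. Whether genes near CASP1 share its profile cannot be read from that. Likeness was the root mean square distance between log2(FPKM + 1) values taken relative to the wild type mean, so it follows the size of the group difference. Nearest to CASP1 was PDLIM1, a cytoskeletal PDZ-LIM protein, at a distance of 0.0325, with 5.65, 6.55 and 5.78 FPKM in wild type and 0.180, 0.116 and 0.295 FPKM in IK-KO. TSPAN33 (0.0863), CD28 (0.129), OVCH1-AS1 (0.133) and VPREB1 (0.147) came next. Nearest to CASP4 was ILDR2 at 0.0697, with 4.17, 4.52 and 4.22 FPKM in wild type and 0.487, 0.862 and 0.989 FPKM in IK-KO. The T-lineage marker CD7 (0.0817), MFNG (0.112), ZYX (0.117) and CR2 (0.120) came next. CD7 measured 16.8, 15.2 and 15.4 FPKM in wild type and 3.17, 4.25 and 5.09 FPKM in IK-KO, close to CASP4 in each library group. CD28, a costimulatory receptor of T cells, measured 6.91, 6.17 and 5.50 FPKM in wild type and 0.169, 0.288 and 0.350 FPKM in IK-KO. The part of these lineage genes in the members' differences was not tested.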

How the data were processed

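Polyadenylated RNA of MOLT-4 was sequenced in 3 wild type and 3 IK-KO libraries, grouped by their labels. The authors deposited 1 gene-level table per library with FPKM values and their confidence bounds, already scaled for length and depth. The submitters' processing notes name STAR 2.6.1c, Cufflinks 2.2.1, HOMER 4.10 and hg38 without roles; the annotation and strand setting are not given in the sources used here. The study merged technical replicates of some libraries; whether of these is not given. Rows of 1 identifier were summed (110 identifiers of 60640), and genes among the 29 rows with a failed status were left out. All 49727 identifiers with the same version in GENCODE 44 lay at its GRCh38 position. Coordinates count from 1. Total counts were not used, and depth was estimated from the confidence bounds.

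The fit used limma 3.58.1 (R 4.3.3) with log2(FPKM + 1) as input (trend, two-sided, Benjamini-Hochberg) over 12652 genes with a mean of at least 1 FPKM, called at an adjusted p under 0.05; the fit was tested on simulated data. For RNA-seq the study names no adjustment of p-values. The members and lists were chosen with earlier results of these data known. Named were all members, up to 5 called genes per list by size of change, a few listed genes whatever their values, called neighbours of the chromosome 11 locus, and the 5 genes outside the member set most like CASP1 and CASP4. Other names were chosen after their values were seen. They are the fitted sensors, DPP9, SERPINB9, MYD88, NINJ1, GBP1, TICAM1, TLR4, RIPK3, CASP2, CASP6, CASP9, CASP14, the lineage markers and the flanking genes. The 17 alternatives covered scaling, filter, pseudocount, a fold limit, subtraction of neighbours, failed estimates, robust eBayes, a replicate block and leaving out each library. A gene of the lists is not reported here by name.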

Additional observations from a re-analysis of the deposited data

How the results depend on the processing

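CASP1, CASP4, CARD16 and GSDMD kept their direction under every alternative that gave a value, and 3 members stayed lower by at least 2-fold without any 1 library. With a filter at a mean of 5 FPKM CASP1 was not fitted, and the count was 2 of 3 members. The members were chosen on this contrast in these same libraries, so this stability describes the values and lends them no support. With a pseudocount of 0.1 FPKM the log2 difference was -4.94 for CASP1, -1.83 for CASP4 and -3.04 for CARD16. Called genes numbered 2515, between 1720 and 2042 without 1 library, and 1805 with the replicate block. The labels do not say whether replicate numbers pair the libraries. Correlations of deviations were 0.0669, 0.0248 and 0.00546 between same-numbered libraries and -0.0878 to 0.0599 between the others. Values this weak from so few libraries do not settle it. Called gasdermin and membrane genes were 1 with no filter on low values, with a filter at a mean of 5 FPKM and with the replicate block, 4 with quantile normalization, and 1 to 2 without 1 library, in place of 2. Called guanylate-binding and lipopolysaccharide genes were 1 in place of 0 with 75th percentile scaling and with the change of neighbours subtracted. Called apoptotic genes were 1 in place of 2 with a filter at 5 FPKM, where fewer genes were fitted, and with the replicate block, and 1 to 2 without 1 library. The block lost the calls of TXNIP, GSDME and BIRC3 (limma adjusted p = 0.0533, 0.0591 and 0.0554) and no other call of a pathway gene or neighbour named in the text; the members have no test. The median of the GSDMD neighbours was -0.00996 with 75th percentile scaling and 0.0169 to 0.104 without 1 library, and that of the NLRP1 neighbours 0.24 with a filter at 5 FPKM and 0.0697 to 0.179 without 1 library. CARD8, which was not called, had a log2 difference of 0.0029 that turned to -0.0310 with 75th percentile scaling, -0.0139 with quantile normalization, and between -0.12 and 0.15 without 1 library (-0.00568, -0.0238 and -0.121 without wild type replicate 3, IK-KO replicate 1 and IK-KO replicate 3). With no filter NMT1, GSDME, BIRC3 and NFKB1 were not called (limma adjusted p = 0.0522, 0.108, 0.0773 and 0.0925). With the change of neighbours subtracted IRF1 was called (0.0321) and GSDME was not (0.0751). The cause was not tested. Depth limits what can be read of PYCARD, CASP5 and the IK-KO levels of CASP1, whose lower bounds were 0 and whose upper bounds reached 1.10, 0.483 and 0.908 FPKM.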
